A study of Mus musculus with 14 samples.

Results

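Round spermatids of steps 4 to 8 were cut by laser capture microdissection from testis sections of control mice (Tsga8+/Y) and of mice without Tsga8 (Tsga8-/Y), and the RNA of both genotypes was compared. Laser capture excises chosen areas of a tissue section under a microscope, so a captured area also takes in parts of neighbouring cells. Of 25965 genes in the expression table, 6329 had 1 RPKM or more in 2 or more of the 4 libraries (2 control, 2 knockout) and form the set described here. RPKM counts reads scaled to gene length and to the reads of the library. Here the length was the whole gene span, introns included, so levels are per kilobase of genomic span. Of the 6329 genes, 4153 reached 1 RPKM in all 4 libraries, 1112 in exactly 3 and 1064 in exactly 2, and a further 1893 genes that reached it in exactly 1 library fell just outside. The genes in exactly 2 libraries include 155 that passed only through the controls and 131 that passed only through the knockouts, and for these a difference between genotypes follows from the filter.

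The series held 14 libraries from male mice in 6 groups. Besides the captured steps 4 to 8, there were 2 control and 2 knockout libraries of a captured region with round spermatids of steps 1 to 3 and elongated spermatids of steps 9 to 16, and 3 control and 3 knockout libraries of adult whole testis. Genotypes were given only as Tsga8+/Y and Tsga8-/Y, with no other allele or treatment named in any group, and the labels do not say how much of the gene was deleted. The series text speaks of replicate animals, and does not say whether both captured regions of a genotype came from the same animals.

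Spermatids are haploid cells that turn from round cells into sperm in numbered steps. In steps 4 to 8 the acrosome, a secretory cap that later serves fertilization, spreads over the nucleus, while the cell still transcribes many genes whose messages are stored for later use. The X chromosome is silenced during meiosis and stays largely repressed in spermatids, but a set of X-linked genes, many of them testis-specific or present in several copies, is active in these cells. Tsga8 is one of those X-linked spermatid genes, and the study asked what it does for spermatid shaping and male fertility.

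The 4 libraries rested on 34770400 to 72022300 reads, and the median gene of the set had 1747 to 3371 reads per library. Replicates were no more alike than libraries of different genotype. Spearman correlations across genes, which are not independent, were 0.810 between the controls and 0.755 between the knockouts, while control 1 and knockout 2 reached 0.857. Knockout 1 stood apart, with 80 genes of the set at 0 reads against 5, 14 and 22 in control 1, control 2 and knockout 2. The label was checked against marker lists. Of 19 round spermatid markers in the table, 18 were in the set, among them the acrosome matrix gene Acrv1 at 108 and 115 RPKM in controls and 85.4 and 138 RPKM in knockouts. All 20 markers of elongating and condensed spermatids were also in the set. Of the markers of other testis cells, 12 of 24 Sertoli, 2 of 18 spermatogonial, 1 of 14 Leydig, 1 of 12 peritubular, 3 of 13 macrophage and 0 of 11 endothelial genes were in it.

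Tsga8 itself was almost absent from knockout spermatids. It stood at 239 and 193 RPKM in the controls and at 2.18 and 3.76 RPKM in the knockouts, which rest on 21473, 11314, 134 and 163 reads. The knockout mean was 1.37% of the control mean. The log2 difference, taken on log2(RPKM + 1) as throughout, was -5.79 ± 0.65 (SE, n = 2 each, limma adjusted p = 0.0443). Tsga8 was the only one of 6329 genes to pass an adjusted p under 0.05 (0.0158%). Its call did not hold in 12 of 16 alternative settings, among them the fits without any one library (adjusted p = 0.109 to 0.622), limma voom on recovered reads (0.617) and the 4 libraries fitted alone (0.0514). With 2 libraries a group, the smallest p that an exact two-sided permutation test can give is 0.333. The gene lies on the minus strand of chromosome X from 83486678 to 83487924 (mm10), within the span of Dmd on the other strand. The captured libraries came from SMART-seq2, a protocol for small RNA amounts that does not mark strand, so the 2 genes' reads cannot be told apart there.

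Beyond Tsga8, the genes of lowest p with a lower level in knockouts were mostly X-linked. Over all 6329 genes, 268 had an unadjusted p under 0.05 (4.23%), where chance gives 316.5, and 150 of them were lower (2.37%) and 118 higher (1.86%) in knockouts. Leaving out control 2 gave 145, leaving out knockout 1 gave 177 and leaving out knockout 2 gave 522. Of the 12 lower genes chosen by lowest p after Tsga8, 10 lie on the X chromosome, and none passed the adjustment. Of the 12, 7 (Wdr13, Olfr742, Sln, Mtap7d3, Yipf6, Cstf2 and Rlim) passed the level filter through the controls alone, so that their differences follow in part from the filter, while the other 5 were above 1 RPKM in all 4 libraries. Wdr13, a WD-repeat protein gene, stood at 3.56 and 5.32 RPKM in controls and 0.0127 and 0.360 RPKM in knockouts (-2.19 ± 0.38, limma adjusted p = 0.270). The knockout libraries held 6 and 120 reads of it, against 2456 and 2396 in the controls. Dusp21, a dual-specificity phosphatase gene of the testis, had 81.0 and 271 RPKM in controls and 8.29 and 2.73 RPKM in knockouts (-4.66 ± 0.81, limma adjusted p = 0.270). Ube2dnl, related to ubiquitin-conjugating enzymes, had 131 and 114 RPKM in controls and 1.29 and 14.8 RPKM in knockouts (-4.36 ± 1.17). The rule that chose these 12 genes required every knockout library to lie below every control library.

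Further X-linked genes of this group had smaller but separate levels. Prdx4, a peroxiredoxin of the secretory pathway, had 25.2 and 58.0 RPKM in controls and 5.61 and 4.70 RPKM in knockouts (-2.68 ± 0.67). The tetraspanin gene Tspan6 had 22.4 and 30.0 RPKM against 6.82 and 6.91 RPKM (-1.78 ± 0.48), the tightest pair of knockouts among them. Fam122c had 8.14 and 6.52 RPKM against 1.06 and 1.61 RPKM (-1.84 ± 0.39). Lower levels were found for the cleavage stimulation factor subunit Cstf2, at 2.02 and 4.61 RPKM against 0.193 and 0.535 RPKM, and for the ubiquitin ligase Rlim, at 2.42 and 3.13 RPKM against 0.463 and 0.533 RPKM. Cstf2 overlaps Nox1 on the other strand. Mtap7d3 (-1.33 ± 0.32) and Yipf6 (-1.56 ± 0.41) completed the X-linked genes. The autosomal pair were Olfr742, an olfactory receptor gene at 2.80 and 3.04 RPKM against 0.0163 and 0.359 RPKM, and Sln, which encodes the calcium pump regulator sarcolipin, with 388 and 793 reads in controls and 0 reads in both knockouts. Among predicted genes, which the rule for naming left out, the X-linked Gm14478 and Gm614 stood lowest in p: they had 63.1 and 30.9 RPKM against 2.44 and 1.41 RPKM, and 96.2 and 41.9 RPKM against 0.707 and 2.43 RPKM.

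**Figure D1:**
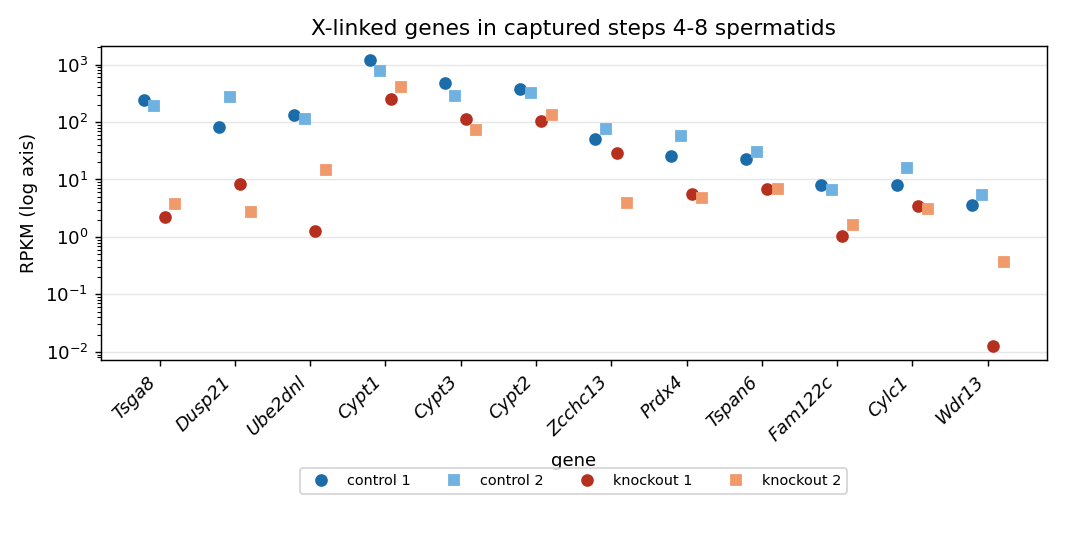
RPKM of 12 X-linked genes (x axis) in each of the 4 captured libraries of steps 4 to 8 on a log axis; blue points are the 2 controls and red or orange points the 2 knockouts. In every gene shown both knockouts lie below both controls, from Tsga8 at 2.18 and 3.76 RPKM against 239 and 193 RPKM to Cylc1 at 3.50 and 3.10 RPKM against 8.13 and 15.6 RPKM. The naming rule required this order of genotypes of Dusp21, Ube2dnl, Prdx4, Tspan6, Fam122c and Wdr13.

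The X chromosome as a whole stood apart from every autosome. Of 163 X-linked genes in the set, 133 had a negative difference, against 3053 of all 6329 genes (48.2%), and the median log2 difference was -0.90 on the X and 0.02 over all genes. Both knockouts lay below both controls in 95 X-linked genes and above them in 9, where over all genes 854 (13.5%) and 982 (15.5%) did so, 1836 in either direction (29.0%). At an unadjusted p under 0.05, 50 X-linked genes were lower and 1 was higher. X-linked genes were thus 33.3% of the 150 lower genes and 2.58% of the set. The autosomes had medians from -0.04 (chromosome 17) to 0.14 (chromosome 13). The 12 Y-linked genes had a median of -0.51 and were, except for the translation factor gene Eif2s3y, genes with accession-like symbols and no name. Both knockouts lay below both controls in 6 of these 12 (50%, against 13.5% of all genes) and above them in 0. At an unadjusted p under 0.05, 4 of the 12 were lower, against 2.37% of all genes. The median of their mean levels was 1.45 RPKM. Without Tsga8 the X-linked median was -0.89, and across 16 alternative settings it ran from -1.29 to -0.55. Leaving out any one of the 4 libraries gave -1.07 to -0.80. Of the X-linked genes, 20 passed the level filter through the controls alone (12.3%, against 2.19% of genes elsewhere). Of the 100 X-linked genes at 1 RPKM or more in all 4 libraries, 81 had a negative difference. In tissue, fewer cells of a type and less RNA per cell cannot be told apart.

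**Figure D2:**
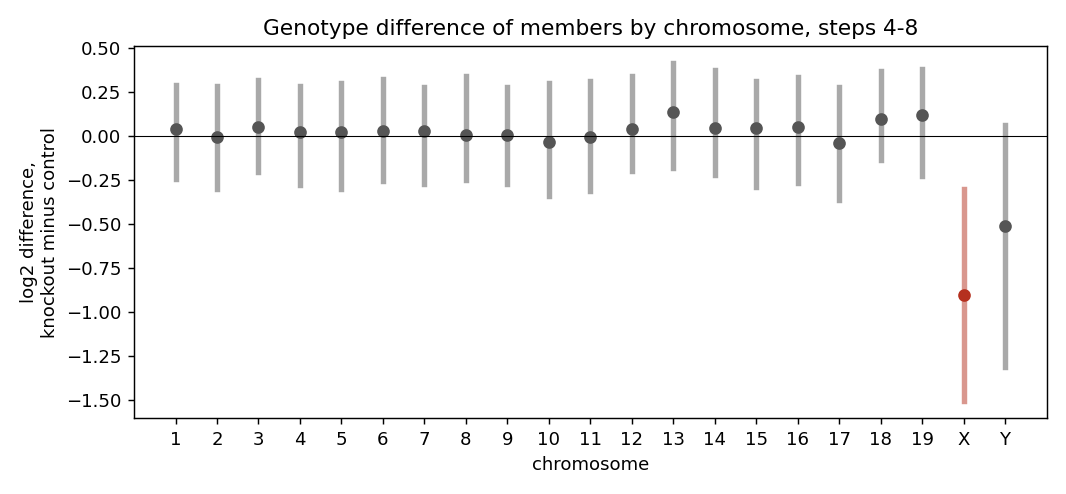
Median log2 difference, knockout minus control, of the genes of each chromosome (x axis) in captured steps 4 to 8, on the log2(RPKM + 1) scale; points are medians over genes and bars span the quartiles. The X chromosome (red) has a median of -0.90, the autosomes lie between -0.04 and 0.14, and the 12 genes of the Y chromosome have a median of -0.51.

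In linear terms the typical X-linked gene kept less than 50% of its control level. The median ratio of knockout to control mean RPKM was 45.4% on the X, with quartiles of 27.0% and 82.8%, and 103% elsewhere. Ratios below 50% were found in 91 X-linked genes (55.8%) and in 419 of 6166 genes elsewhere (6.80%). These figures include the genes that passed the level filter through the controls alone, 20 on the X (12.3%) and 135 elsewhere (2.19%). For those genes a lower level in knockouts follows in part from the filter. The ratio was lower at higher levels, with 51.3% for 59 X-linked genes with a mean of 1 to 3 RPKM, 46.2% for 49 at 3 to 10, 43.1% for 43 at 10 to 100 and 34.0% for 12 above 100 RPKM. Elsewhere the same bins gave 103%, 104%, 103% and 99.7%. The X-linked share of summed RPKM was 5.16% and 4.98% in controls and 2.26% and 2.76% in knockouts, and without Tsga8 it was 5.01% and 4.85% against 2.25% and 2.75%. By position along the chromosome the median was -0.89, -1.02, -1.04 and -0.77 in 4 successive blocks of the X-linked genes from position 7067519 to 169779635. X-linked genes were short, with a median span of 3.50 kb against 10.5 kb elsewhere.

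The list of sex-linked spermatid genes and families, made with earlier results of these data known, had 16 of 23 genes of the table in the set. It also holds Dusp21, Ube2dnl, Prdx4 and Tspan6, named above for their low p by a rule that required both knockouts below both controls. All 15 of its X-linked genes had a negative difference, and in 14 of them both knockouts lay below both controls. Over all genes 13.5% were separate in this way, and over the X-linked genes of the set 58.3%. Its remaining gene, the autosomal Rbm44, had 2.07 and 0.915 RPKM in controls and 3.02 and 3.74 RPKM in knockouts. The median of the 16 was -1.57, and 9 were lower at an unadjusted p under 0.05, a count that was 5 without control 1. Over all genes 2.37% were lower at that threshold, and 50 of the 163 X-linked genes were. The summed RPKM of the 16 was 2672 and 2338 in controls and 625 and 933 in knockouts. The largest part of that sum came from the Cypt family, small basic proteins of the perinuclear theca, the rigid layer between acrosome and nucleus. Cypt1 had 1189 and 782 RPKM in controls and 251 and 406 RPKM in knockouts (-1.59 ± 0.59). Cypt2 had 377 and 313 RPKM against 102 and 132 RPKM (-1.56 ± 0.58), and Cypt3 478 and 286 RPKM against 112 and 73.5 RPKM (-2.01 ± 0.64). These genes were at 33.4%, 33.9% and 24.3% of control. In Cypt15 knockout 2 reached the controls, with 233 and 282 RPKM against 53.4 and 236 RPKM.

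Cypt genes outside the X were nearer to control. Cypt4 on chromosome 9 had 2664 and 2476 RPKM in controls and 1353 and 2430 RPKM in knockouts (-0.50 ± 0.59), and Cypt12 on chromosome 3 had 1899 and 1268 RPKM against 860 and 1171 RPKM (-0.63 ± 0.53). Knockout 2 lay next to control 2 in Cypt4, while knockout 1 was the lowest library in both genes. In whole testis, with 3 libraries a genotype, Cypt1 differed by -1.58 (limma adjusted p = 0.00249) and Cypt4 by 0.20 (0.375), and the difference between the genes was not tested. Because family members resemble each other, reads may be shared among them, and Cypt4 overlaps Dpy19l2 on the other strand. The promoters of these genes are shown so that X-linked and autosomal copies can be set side by side. Each run covers 250 bases before to 50 bases after the transcription start, 5′ to 3′ on the gene's strand, from RefSeq on GRCm38.p6 (mm10), with CCAAT, or ATTGG where the match is on the other strand, in capitals. The positions are chrX:83487875-83488174 (minus strand) for Tsga8, chrX:16522619-16522918, chrX:105499522-105499821 and chrX:153558343-153558642 (plus strand) for Cypt1, Cypt2 and Cypt3, chr9:24624935-24625234 (plus strand) for Cypt4 and chr3:17948194-17948493 (plus strand) for Cypt12.
Tsga8: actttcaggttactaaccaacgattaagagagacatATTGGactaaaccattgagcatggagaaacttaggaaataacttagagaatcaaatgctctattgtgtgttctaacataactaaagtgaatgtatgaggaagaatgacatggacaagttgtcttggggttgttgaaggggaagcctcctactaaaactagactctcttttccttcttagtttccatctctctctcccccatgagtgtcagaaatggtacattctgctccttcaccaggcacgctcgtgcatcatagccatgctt
Cypt1: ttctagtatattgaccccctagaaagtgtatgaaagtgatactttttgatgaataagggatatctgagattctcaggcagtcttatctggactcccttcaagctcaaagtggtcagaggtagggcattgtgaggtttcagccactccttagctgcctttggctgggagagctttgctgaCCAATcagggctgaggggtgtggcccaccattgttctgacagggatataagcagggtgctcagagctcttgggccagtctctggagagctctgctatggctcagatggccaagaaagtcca
Cypt2: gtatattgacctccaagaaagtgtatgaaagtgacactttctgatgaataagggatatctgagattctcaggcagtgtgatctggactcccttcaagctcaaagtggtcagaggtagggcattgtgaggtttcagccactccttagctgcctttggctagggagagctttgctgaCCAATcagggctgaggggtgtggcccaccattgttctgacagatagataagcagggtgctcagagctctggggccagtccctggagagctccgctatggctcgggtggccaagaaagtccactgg
Cypt3: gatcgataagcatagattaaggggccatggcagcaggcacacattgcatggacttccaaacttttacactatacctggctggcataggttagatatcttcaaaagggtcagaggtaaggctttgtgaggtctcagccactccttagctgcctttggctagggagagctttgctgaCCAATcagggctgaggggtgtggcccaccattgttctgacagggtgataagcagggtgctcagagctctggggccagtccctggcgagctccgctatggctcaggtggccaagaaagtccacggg
Cypt4: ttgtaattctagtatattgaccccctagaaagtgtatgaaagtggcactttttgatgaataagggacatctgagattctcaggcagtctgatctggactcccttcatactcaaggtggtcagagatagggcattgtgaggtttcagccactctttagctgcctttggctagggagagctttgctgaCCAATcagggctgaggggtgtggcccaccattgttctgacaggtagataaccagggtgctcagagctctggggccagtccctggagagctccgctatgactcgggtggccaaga
Cypt12: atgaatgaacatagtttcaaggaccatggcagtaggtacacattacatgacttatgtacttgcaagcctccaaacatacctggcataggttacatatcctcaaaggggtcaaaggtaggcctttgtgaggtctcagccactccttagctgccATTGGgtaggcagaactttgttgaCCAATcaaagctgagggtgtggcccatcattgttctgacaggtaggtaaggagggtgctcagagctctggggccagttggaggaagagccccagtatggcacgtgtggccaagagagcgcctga

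Aligned over 300 bases, Cypt1 and Cypt2 were identical at 93.7% of positions, Cypt1 and autosomal Cypt4 at 91.7%, and Cypt2 and Cypt4 at 91.7%. X-linked Cypt3 was further from these, at 75.7% to Cypt1, 77.7% to Cypt2 and 73.7% to Cypt4. Autosomal Cypt12 was nearest to Cypt3 at 79.7% and shared 68.7% with Cypt1, 71.7% with Cypt2 and 69.0% with Cypt4. CCAAT begins 71, 75, 75 and 64 bases before the start in Cypt1, Cypt2, Cypt3 and Cypt4, and 214 bases before it on the other strand in Tsga8. Cypt12 has it 74 bases before the start and, on the other strand, 98 bases before it. It was searched on both strands, was chosen after the sequences had been read, and occurs in 41.1% of all 27025 genes with a promoter of this length. Also searched on both strands were TATAAA, found in 15.7% of all promoters, the motif GTTGCC in 14.1%, the motif TGACGT in 8.37%, and its longer form TGACGTCA, which holds it, in 2.03%. None of these had a match in the 6 windows. Promoter entries existed for 4650 of the 6329 genes (73.5%), with 74.2% of the X-linked genes covered. Among genes with an entry, CCAAT was found in 56.2% of X-linked genes and 43.8% of the others. GTTGCC was found in 14.9% and 17.8%, TGACGT in 10.7% and 14.1%, and TATAAA in 9.92% and 9.74%. These differences were not tested.

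The other sex-linked spermatid genes showed the same order of genotypes with more spread. Cylc1, which encodes the calyx protein cylicin of the sperm head, had 8.13 and 15.6 RPKM in controls and 3.50 and 3.10 RPKM in knockouts (-1.52 ± 0.46). Zcchc13, a zinc finger gene, had 50.7 and 76.5 RPKM against 29.3 and 3.84 RPKM (-2.39 ± 0.94). The actin-related Actrt1 had 17.8 and 24.1 RPKM against 8.90 and 3.07 RPKM (-1.77 ± 1.00). For both, the ratio between the knockouts was larger than that between the nearer knockout and a control. Akap4, the main scaffold of the fibrous sheath of the tail, had 24.8 and 59.7 RPKM against 20.5 and 24.7 RPKM, so that knockout 2 almost met control 1.

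Broadly expressed X-linked genes, active in most tissues, went both ways, with more of them lower in knockouts. Of the 59 genes listed in the table, 17 were in the set, 11 with a negative difference and a median of -0.84, which was -0.29 without knockout 1. Both knockouts lay below both controls in 9 of the 17 (52.9%, against 13.5% of all genes) and above them in 2 (11.8%, against 15.5%). At an unadjusted p under 0.05, 4 of the 17 were lower and 1 higher, against 2.37% and 1.86% of all genes. Uba1, the enzyme that starts ubiquitin conjugation, had 3.63 and 8.93 RPKM in controls and 1.88 and 0.145 RPKM in knockouts (-1.90 ± 0.61). Emd, which encodes the nuclear envelope protein emerin, had 1.03 and 3.75 RPKM against 0.0681 and 0.101 RPKM (-1.52 ± 0.43). Emd and Wdr13, also of this list, passed the level filter through the controls alone, so that their differences follow in part from the filter. Sat1, a polyamine acetyltransferase gene, went the other way, at 0.0418 and 0.0642 RPKM in controls and 2.06 and 1.91 RPKM in knockouts (1.503 ± 0.50), and was the X-linked gene that passed the filter through the knockouts alone. Ndufa1, a subunit of respiratory complex I, had 10.01 and 5.76 RPKM against 14.4 and 21.9 RPKM (1.13 ± 0.52). The thymosin gene Tmsb4x, the highest of the list, had 44.4 and 39.1 RPKM against 44.4 and 67.9 RPKM, with no separation of genotypes.

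Whole testis gave a separate measure of the same genotypes, in libraries that were not used to choose the set. There limma called 501 of 8146 genes (6.15%), 166 lower (2.04%) and 335 higher (4.11%). Of 5473 genes of the set tested there it called 351 (6.41%), 127 lower (2.32%) and 224 higher (4.09%). Of the 127 lower genes, 111 had a negative difference in steps 4 to 8, with a median of -0.91, and in 86 both captured knockouts lay below both controls (67.7%, against 13.5% of all genes). Of these genes 75 were X-linked, and 73 of the 75 were negative, with a median of -1.45. The 52 autosomal or Y-linked genes had 38 negative and a median of -0.43, with 25 genes separate towards lower (48.1%, against 13.5% of all genes) and 4 towards higher (7.69%, against 15.5%). The 224 genes called higher in whole testis had no common direction in steps 4 to 8: 111 were negative, the median was 0.01, and it ran from -0.22 without knockout 2 to 0.22 without knockout 1. Of 47 X-linked genes tested but not called in whole testis, 24 were negative and the median was -0.05. The whole testis calls numbered from 76 to 1531 when any one of its 6 libraries was left out, more than 1.5 times away from 501 in each case.

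Autosomal genes called in whole testis differed among themselves in steps 4 to 8. Tor1aip1, which encodes a nuclear envelope partner of torsin and lies on chromosome 1, differed by -1.11 in whole testis and had 8.92 and 11.4 RPKM in captured controls and 4.05 and 2.43 RPKM in captured knockouts (-1.42 ± 0.44). Impdh2, an enzyme of guanine nucleotide synthesis, had 15.9 and 27.0 RPKM against 3.86 and 8.31 RPKM (-1.69 ± 1.02). The importin gene Kpna1, lower in whole testis by -1.60, had 0.822 and 1.15 RPKM in captured controls and 2.30 and 1.85 RPKM in captured knockouts (0.63 ± 0.41). Its order of genotypes was thus reversed between tissue and capture. Among genes higher in whole testis, Rundc3a had 4.83 and 5.36 RPKM against 11.5 and 6.02 RPKM, and Ctxn1 had 0.0683 and 4.33 RPKM against 18.6 and 2.05 RPKM, with each genotype overlapping the other in Ctxn1. Whether whole testis and steps 4 to 8 differ was not tested for any gene, since the library kits differ.

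**Figure D3:**
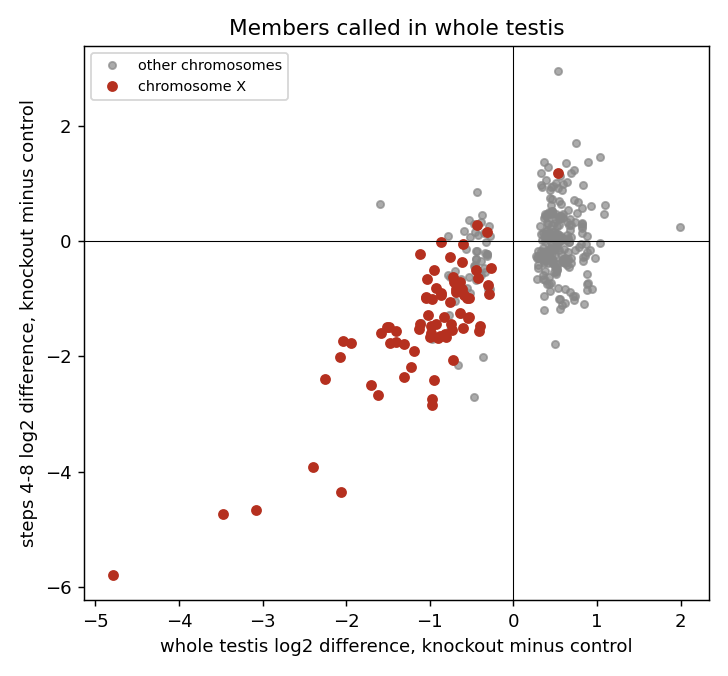
Log2 difference, knockout minus control, in whole testis (x axis) and in captured steps 4 to 8 (y axis) for the 351 genes of the set called in whole testis; each point is 1 gene, red on the X chromosome and grey elsewhere. Of 75 X-linked genes lower in whole testis 73 lie below 0 on the y axis, while the 224 genes higher in whole testis are spread around 0.

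The 12 genes of lowest p with a higher level in knockout spermatids were autosomal. None of them passed the adjustment (limma adjusted p = 0.513 to 0.749), and 7 (Olfr181, Sertad4, Cd81, Pop7, Mdh1, Rrm2 and Fn3krp) passed the level filter through the knockouts alone, so that their differences follow in part from the filter. Cd81, a tetraspanin gene of the cell surface, had 0.355 and 0.455 RPKM in controls and 3.03 and 4.07 RPKM in knockouts (1.69 ± 0.40). C1qbp, a mitochondrial matrix protein gene, had 1.47 and 1.08 RPKM against 6.11 and 5.50 RPKM (1.58 ± 0.41). Zscan12, a zinc finger gene, had 1.37 and 1.40 RPKM against 7.85 and 6.81 RPKM (1.80 ± 0.47). C1qbp and Zscan12 were above 1 RPKM in all 4 libraries, whereas both controls of Cd81 lay below it. The cytosolic malate dehydrogenase Mdh1 had 0.511 and 0.276 RPKM against 2.84 and 2.93 RPKM, and somatic cytochrome c, Cycs, had 2.67 and 2.14 RPKM against 6.25 and 11.9 RPKM. Prr15 had 4.10 and 1.94 RPKM against 12.7 and 13.9 RPKM. Olfr181, Sertad4, Pop7, Rrm2, Inha and Fn3krp made up the rest, with differences of 2.40, 1.92, 3.04, 1.68, 1.46 and 1.39. Cd81, Mdh1, Prr15, Sertad4 and Pop7 overlap another gene, so that reads cannot be assigned to 1 of them. In whole testis none of the 12 was called.

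Genes of chromatin condensation, a process that replaces histones by transition proteins and then protamines, were mostly at lower levels in knockouts. Of the 22 genes listed in the table, 17 were in the set, 14 of them negative. Both knockouts lay below both controls in 9 (52.9%, against 13.5% of all genes) and above them in 0 (15.5% of all genes). The median of -0.41 was -0.17 without knockout 1, and 1 gene was lower at an unadjusted p under 0.05. That gene, the protamine gene Prm1, had 3541 and 4141 RPKM in controls and 218 and 1396 RPKM in knockouts (-2.79 ± 1.06, limma adjusted p = 1.00). Without knockout 1 its difference was -1.46 and without knockout 2 -4.13. Tnp1, a transition protein gene, had 2299 and 2029 RPKM against 540 and 1220 RPKM, and Prm3 had 981 and 1109 RPKM against 391 and 587 RPKM. Tnp2 had 785 and 3769 RPKM against 109 and 1122 RPKM, with control 1 below knockout 2. Prm2, the most abundant gene of all, had 9157 and 8072 RPKM against 7400 and 4741 RPKM (-0.54 ± 0.76). Knockout 1 was the lowest library for Prm1, Prm3, Tnp1 and Tnp2, but not for Prm2.

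The markers of elongating and condensed spermatids moved with that group. Their summed RPKM was 21000 and 24020 in controls and 12010 and 12450 in knockouts, 17 of 20 were negative, and the median of -0.53 was -0.25 without control 2. These markers share Prm1, Prm2, Prm3, Tnp1 and Tnp2 with the condensation list. They also moved with the X-linked genes, and their part in either result was not tested. In whole testis 0 of the 20 markers was called, and Prm1 differed by -0.81 (limma adjusted p = 0.110).

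**Figure D4:**
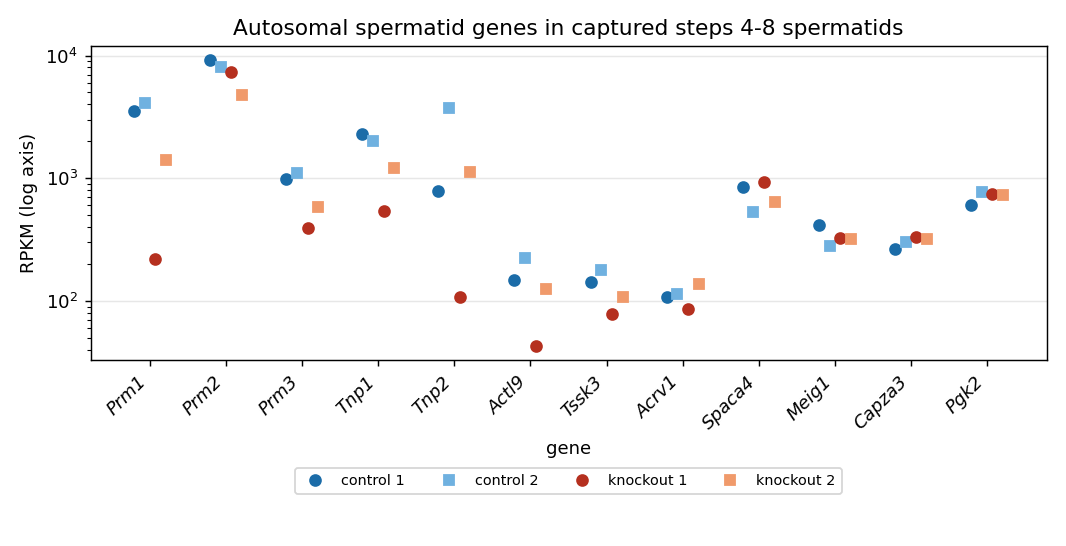
RPKM of 12 autosomal spermatid genes (x axis) in each of the 4 captured libraries of steps 4 to 8 on a log axis; blue points are controls and red or orange points knockouts. Prm1, Prm2, Prm3, Tnp1, Actl9 and Tssk3 have both knockouts below both controls, and Capza3 has both above them. Tnp2, Acrv1, Spaca4, Meig1 and Pgk2 have overlapping genotypes.

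Head shaping genes, which build the perinuclear theca, the calyx and the manchette, had 27 of 33 in the set and 20 negative, but a median of -0.09 that became -0.33 without control 1, 0.02 without control 2 and 0.01 with libraries scaled to a common sum. The negative genes were led by X-linked Cylc1 and Actrt1. Among autosomal members, the actin-like Actl9 had 148 and 225 RPKM in controls and 43.1 and 126 RPKM in knockouts (-1.29 ± 0.67). Klc3, a kinesin light chain gene of the spermatid tail that overlaps Ercc2, had 1.27 and 2.85 RPKM against 0.0126 and 1.10 RPKM (-1.02 ± 0.49), whereas it was called higher in whole testis (0.73, limma adjusted p = 0.0102). Meig1, needed for manchette transport, had 419 and 281 RPKM against 325 and 321 RPKM, and the capping protein gene Capza3 had 264 and 300 RPKM against 333 and 318 RPKM.

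Acrosome genes, the structure under construction in these steps, lay close to control. Of the 26 genes listed in the table, 22 were in the set, 10 negative and 12 positive, with a median of 0.03 that ran from -0.02 to 0.21 over the alternatives and was below 0 without control 1 (-0.01) and without knockout 2 (-0.02). None had an unadjusted p under 0.05. Spaca4, an acrosomal membrane protein gene, had 843 and 535 RPKM in controls and 926 and 637 RPKM in knockouts (0.19 ± 1.08). Acrv1 differed by -0.04 ± 0.88. The sperm hyaluronidase gene Spam1 had 20.2 and 18.7 RPKM against 32.2 and 28.5 RPKM (0.62 ± 0.48), the lowest p of the list. The standard errors of the 7 acrosome genes picked by the naming rule ran from 0.38 to 1.08, so differences of that order were not detectable with 2 libraries a genotype.

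Tail, axoneme, regulator and kinase genes had medians near 0, and ion channel genes a lower one. Tail fibre and sheath genes had 13 of 26 negative and a median of -0.01, with Odf4, an outer dense fibre gene, at 25.2 and 30.5 RPKM in controls and 10.5 and 20.9 RPKM in knockouts, and the spermatid glycolysis gene Pgk2 at 610 and 778 RPKM against 738 and 734 RPKM. Axoneme genes had 6 of 13 negative and a median of 0.07, and ion channel genes 7 of 10 negative and a median of -0.27, negative in all 16 alternatives (-0.30 to -0.11). In 5 ion channel genes both knockouts lay below both controls (5 of 10, against 13.5% of all genes), and in 0 above. In both lists no gene had an unadjusted p under 0.05. Catsperg1, of the CatSper calcium channel, had 2.12 and 3.16 RPKM against 0.700 and 1.26 RPKM (-0.88 ± 0.47). Spermatid transcription and RNA regulators had 8 of 21 negative and a median of 0.07. Kinases had 8 of 14 negative and a median of -0.06, with Tssk3 at 142 and 179 RPKM against 78.4 and 107 RPKM and Tssk2 at 251 and 240 RPKM against 270 and 240 RPKM. Without control 2 the tail median was 0.04, the axoneme median -0.06 and the regulator median -0.11, and the regulator median was also -0.11 without knockout 2. The kinase median was 0.08 without control 1 and 0.09 without knockout 2. Tssk3 was separate and Tssk2 overlapped, although both encode testis-specific serine kinases.

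Markers of Sertoli cells, which enclose and nurse the germ cells, were higher in knockout libraries. Of the 12 in the set, 11 had a positive difference, and the median was 0.71. It was 0.11 without control 2 and 1.22 without control 1, and 1 gene was higher at an unadjusted p under 0.05. Their summed RPKM was 174 and 80.2 in controls and 180 and 297 in knockouts, so control 1 and knockout 1 were nearly equal. Inha, the inhibin alpha subunit, had 0.785 and 1.55 RPKM against 4.48 and 5.32 RPKM (1.46 ± 0.42). It was also named above by a rule that required both knockouts above both controls. Clusterin, Clu, had 7.99 and 1.88 RPKM against 17.8 and 15.2 RPKM (1.78 ± 0.90). The cystatin-like Cst9 had 53.8 and 38.0 RPKM against 56.0 and 148 RPKM, and cathepsin L, Ctsl, had 14.9 and 3.12 RPKM against 12.5 and 25.5 RPKM. Control 2 was the lowest library in Cst9, Cst12, Ctsl, Defb19 and Clu. The part of these cells in the genotype differences of other genes was not tested.

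**Figure D5:**
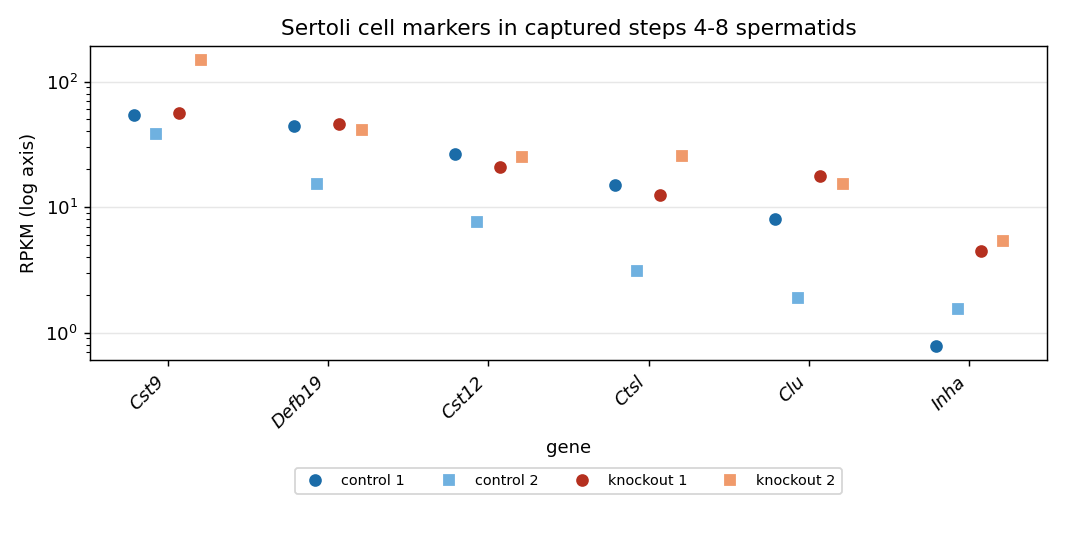
RPKM of 6 Sertoli cell markers (x axis) in each of the 4 captured libraries of steps 4 to 8 on a log axis; blue points are controls and red or orange points knockouts. Inha and Clu separate the genotypes, Clu at 7.99 and 1.88 RPKM in controls and 17.8 and 15.2 RPKM in knockouts, while control 2 (light blue) is lowest in the other 4 genes. The naming rule required this order of genotypes of Inha.

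Meiotic genes had 7 of 22 negative and a median of 0.16, which turned to -0.09 on leaving out knockout 2 and to 0.01 on leaving out control 2, and reached 0.31 on leaving out control 1 and 0.34 on leaving out knockout 1. Among them was Ccnb1, a cyclin gene of cell division, at 3.44 and 5.37 RPKM in controls and 8.25 and 9.96 RPKM in knockouts (0.92 ± 0.68). Spermatogonial markers were represented by Id4 and Dmrtb1, at 6.81 and 6.98 RPKM against 16.4 and 10.03 RPKM and at 16.0 and 21.4 RPKM against 28.1 and 18.3 RPKM. Markers of macrophages summed to 6.83 to 10.5 RPKM in the 4 libraries, and all endothelial markers in the table together to 1.04 to 1.65 RPKM. Leydig and peritubular cells had 1 gene each in the set, Fdx1 and Actg2, both with overlapping genotypes. All 14 Leydig markers in the table together reached 4.63 and 3.55 RPKM in controls and 1.57 and 28.7 RPKM in knockouts. Most of the sum in knockout 2 came from Insl3, the Leydig cell insulin-like hormone, at 0.734 and 0.250 RPKM in controls and 0.0746 and 20.7 RPKM in knockouts. Insl3 reached 1 RPKM in that library alone and so lies outside the set, and the part of Leydig cells in other differences was not tested.

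Stress and housekeeping lists had small medians that moved with the library left out. Unfolded protein response genes had 4 of 14 negative and a median of 0.17, which was 0.43 without knockout 1 and 0.06 without knockout 2. Atf4, its transcription factor, had 4.58 and 1.61 RPKM in controls and 11.02 and 17.2 RPKM in knockouts (1.96 ± 0.64, limma adjusted p = 0.815). Heat shock genes had 3 of 16 negative and a median of 0.17, which was 0.32 without knockout 1 and 0.08 without knockout 2, with the chaperone gene Hsp90ab1 at 12.2 and 9.15 RPKM against 21.9 and 21.8 RPKM. Proteasome genes had 12 of 30 negative (median 0.06), ribosomal protein genes 47 of 80 (median -0.07) and oxidative phosphorylation genes 20 of 76 (median 0.16). Without control 2 the proteasome median was -0.11, the ribosomal median -0.53 and the oxidative phosphorylation median -0.15, and without control 1 they were 0.22, 0.41 and 0.44. Testis serine proteases had 11 of 21 negative, ADAM genes 6 of 18 (median 0.30), tubulins 7 of 11 and olfactory receptor genes 23 of 32 (median -0.52). Without knockout 1, 2 of the 11 tubulins were negative and the olfactory receptor median was -0.24, and without control 1 the ADAM median was 0.13. Tubb5, a beta-tubulin, had 0.764 and 0.156 RPKM against 12.6 and 4.22 RPKM (2.56 ± 0.78). It passed the level filter through the knockouts alone, so that its difference follows in part from the filter. Immediate early genes and the p53 and apoptosis list had 2 and 5 genes in the set, and none of these had an unadjusted p under 0.05.

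Whether the genotype difference was particular to steps 4 to 8 was tested against the other captured region in the same fit. No gene passed (0 of 6329 at a limma adjusted p under 0.05), and 157 had an unadjusted p under 0.05 (2.48%). Of the 163 X-linked genes, 20 did so (12.3%), 18 with a lower and 2 with a higher difference in steps 4 to 8. The X-linked median was -0.90 in steps 4 to 8 and -0.20 in the other region. The median of the gene-by-gene region difference was -0.56, against -0.05 over all genes. All genes of the set were chosen by their steps 4 to 8 levels. Of the X-linked ones, 20 passed through the controls alone (12.3%, against 2.19% of genes elsewhere). The X-linked counts and medians of the region difference therefore follow in part from the choice. Tsga8 differed by -3.60 in the other region, a region difference of -2.20 (unadjusted p = 0.0388 from the limma model over all genes). Wdr13 (-2.32), Dusp21 (-3.90) and Prdx4 (-2.21) had differences of like sign there, whereas the autosomal Olfr742 (0.14) and Sln (-0.03) were near 0 there. The unadjusted p of the region difference, from the limma model over all genes, was 0.00289 for Olfr742 and 0.00951 for Sln. Both genes were chosen by their steps 4 to 8 values and passed the level filter through the controls alone. Their region differences reuse those values, so that both p values follow in part from the choice. Rbm3, a cold-inducible RNA-binding protein gene on the X, was chosen after its values were seen. It passed the level filter through the controls of steps 4 to 8 alone. It had 2.45 and 1.12 RPKM in controls and 0.0647 and 0.558 RPKM in knockouts of steps 4 to 8, but 0.889 and 0.9004 RPKM against 1.35 and 1.79 RPKM in the other region. The 2 control libraries of that region were far apart themselves: Prm1 stood at 35227 RPKM in one and 6425 RPKM in the other.

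The most abundant genes of steps 4 to 8, per kilobase of span, were compact genes, with the protamine genes Prm2 and Prm1 ranking 1 and 4. Other genes of that rank included Hmgb4, a high mobility group gene, at 1786 and 4732 RPKM in controls and 1772 and 4125 RPKM in knockouts, and Dbil5, a diazepam binding inhibitor-like gene, at 3526 and 1903 RPKM against 2864 and 1593 RPKM. In both genes replicates differed more than genotypes. The heat shock gene Hspb9 had 3392 and 1234 RPKM against 2859 and 1762 RPKM, the glutathione transferase gene Gstm5 had 1638 and 1831 RPKM against 2388 and 2098 RPKM, and the antizyme gene Oaz3 had 1636 and 2170 RPKM against 1437 and 1064 RPKM. Gstm5 had both knockouts above both controls and Oaz3 both below, and neither reached an unadjusted p under 0.05. By exon length in place of span, Prm2 and Dbil5 ranked 1 and 2 of the set and Gstm5 ranked 3. Hmgb4, Dbil5 and Gstm5 overlap other genes on the opposite strand.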

How the data were processed

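The authors deposited 1 table of log2 RPKM per gene and library, with mm10 positions. The submitters' processing notes name HISAT2 2.1.0 and the mm10 build, besides FastQC and version 0.4.0 of Trim Galore; the counting tool is not given in the sources used here. Per the labels' protocols, captured RNA went into SMART-seq2 and whole testis RNA into a directional kit. The values were raised to RPKM. Their length was the gene span, and 0 reads had been entered as 0.9 read. Whole reads were recovered for 99.99% of values within 0.05 of a whole number. Replicate libraries were distinct (chi-square per gene 414.1 and 383.5).

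On log2(RPKM + 1), genotypes were set against each other by limma 3.58.1 (R 4.3.3) with an intensity trend. A joint fit of the 8 captured libraries, with a mean for each of 4 groups, covered the 6329 genes, since 2 libraries a group leave little to estimate the spread from. Whole testis had its own fit over genes at 1 RPKM or more in at least 3 of 6 libraries. All tests were two-sided, and calls required an adjusted p under 0.05 (Benjamini-Hochberg, over all genes fitted). The fit was tested on simulated data. Differences on this scale understate changes of low genes. Lists are described by counts and medians, with no set test. Symbols converted to dates (11 in the set) were kept as given.

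Besides Tsga8, the genes named are, in each direction, the 12 of lowest p among those with separate genotypes, a mean of at least 2 RPKM in the higher genotype and a symbol that is not of a predicted gene. To these come up to 10 X-linked genes per direction by the same rule, up to 4 genes of lowest p and 3 of highest level per list, the 10 highest levels and 8 genes per direction called in whole testis. Genes named outside the rule were chosen after their values were seen. They are Gm14478, Gm614, Cypt12, Cypt15, Rbm44, Rbm3, Tor1aip1, Impdh2, Kpna1, Insl3 and Eif2s3y. The genes of the set and the lists were chosen with earlier results of these data known.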

Additional observations from a re-analysis of the deposited data

How the results depend on the processing

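The X-linked median (-0.90) ran from -1.29 to -0.55 over 16 alternatives, and that of genes lower in whole testis (-0.91) from -1.27 to -0.59. The median of genes higher in whole testis (0.01) ran from -0.22 to 0.22. The wider filter, no filter, the 2 blocks and the 4 libraries alone leave these medians as they are by construction. No gene was called for the region difference in 15 alternatives, which in a design of this size says nothing of stability. Left-out libraries gave X-linked medians of -1.07 to -0.80. Genes called in steps 4 to 8 numbered 3 with a common sum of RPKM. They numbered 0 with the filter taken over 8 captured libraries, with limma voom, without a filter, with pseudocounts of 0.1 and 4, with quantile normalization, in the 4 libraries alone, and without each library in turn (0 to 0). Tsga8 differed in these fits by -5.79 (filter over 8 libraries, adjusted p = 0.0569), -6.27 (voom, 0.617), -5.79 (no filter, 0.487), -6.18 and -4.98 (pseudocounts, 0.0710 and 0.0627), -5.74 (quantile, 0.0750) and -5.79 (4 libraries alone, 0.0514), and by -6.08 to -5.50 with a library left out. It stayed called among genes with a mean of 5 RPKM or more, with median centring and with a common sum. Genes at an unadjusted p under 0.05 numbered 70 among genes with a mean of 5 RPKM or more, where 2514 genes were tested, 561 without a filter, where 25965 were, and 145 to 522 with a library left out.

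The titles do not say whether libraries with the same number share more than the number. Across genes, deviations of control 1 and knockout 1 from their group means correlated at 0.0749. With 2 libraries a group this cannot show whether they share a batch. With the replicate number as a block, 0 genes were called, Tsga8 differed by -5.79 (adjusted p = 0.201), and 318 genes had an unadjusted p under 0.05. With a block by genotype and number across regions, 1 was called (Tsga8, 0.0479). In whole testis 501 calls became 250 with a common sum, 171 without a filter, 740 with the replicate block and 76 to 1531 with a library left out. The cause of these shifts was not tested. The set was held fixed when a library was left out, and a lone library was assumed to vary like the other groups. A common sum moved the median of all genes from 0.02 to 0.15 and the share of negative differences from 48.2% to 37.7%. Of all genes, 6003 to 8552 had 0 reads in each captured library of steps 4 to 8, and nothing can be said of these at this depth.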
